A study of Mus musculus with 2 samples.

Results

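The genes of glycolysis and of the response to low oxygen, 37 of the 27998 genes listed, were followed through the immune cells of TSA tumours. The rule that chose them names genes by their known roles. They comprised 2 glucose transporters (Slc2a1, Slc2a3), 10 genes of the upper steps of glycolysis (Hk1, Hk2, Hk3, Gpi1, Pfkl, Pfkp, Pfkm, Aldoa, Aldoc, Tpi1) and 6 of the lower steps (Gapdh, Pgk1, Pgam1, Eno1, Eno3, Pkm). A further 4 handle lactate (Ldha, Ldhb, Slc16a1, Slc16a3), 3 regulate flux (Pfkfb3, Pfkfb4, Pdk1), 3 sense oxygen (Hif1a, Egln1, Egln3) and 8 are classical targets of hypoxia (Bnip3, Bnip3l, Vegfa, Ankrd37, Ero1l, P4ha1, Ndrg1, Adm). The cytokine Mif completed the set, and all 37 had at least 1 unique molecular identifier (UMI), the tag by which each captured RNA molecule is counted once.

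TSA is a mouse mammary carcinoma line that grows in Balb/c mice. Each female Balb/c mouse received 100000 TSA cells under the skin, and was randomised once its tumour measured 0.25 cm2 either to no treatment or to 10 days of nicotinamide (NAM), an amide of vitamin B3 given at 0.5% through the drinking water. The CD45+ cells, meaning leukocytes, of the tumours of 3 mice per group were pooled, enriched on magnetic beads and sequenced as 1 10x Genomics 3′ library per group. The mice within a pool cannot be separated, and with 1 library per group the treatment and the library cannot be told apart. Every difference below therefore describes these libraries and carries no p-value, and each interval covers counting error alone.

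Glycolysis splits glucose into pyruvate, which lactate dehydrogenase can turn into lactate for export by monocarboxylate transporters. Under low oxygen the prolyl hydroxylases encoded by Egln1 and Egln3 no longer mark the transcription factor HIF-1α for destruction. The stabilised factor then raises the RNA of glucose transporters, most glycolytic enzymes and targets such as Vegfa and Bnip3, and Egln3 is itself such a target. Macrophages and activated lymphocytes in tumours are known to run on glycolysis, and in myeloid cells inflammatory signals can raise HIF-1α also when oxygen is present.

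The files held 2922 cells from untreated tumours and 3276 from NAM tumours, with a median of 9056 and 9128 UMIs per cell. Cells were placed in classes by summed UMIs of marker genes, which placed 92.0% and 90.4% of them, and 11 barcodes occurred in both libraries. Macrophages (at least 20 UMIs of C1qa, C1qb and C1qc) numbered 1951 and 2149 cells. Within them, subsets were defined by Vcam1 and Dnase1l3 (at least 4 UMIs, 446 and 443 cells), by Mmp12 (at least 10 UMIs, only 39 and 77 cells), by cell cycle genes (238 and 232) and by interferon-induced genes (70 and 74). Cells of the Vcam1 Dnase1l3 and of the Mmp12 subset had to lie under the other's gate and under the cell cycle and interferon gates. The remaining 1158 and 1323 macrophages, called ungated below, were in none of these subsets. They include any that met both the Vcam1 Dnase1l3 and the Mmp12 gate. The other classes were Ly6c2 monocytes (174 and 176 cells), osteoclast-like myeloid cells (124 and 140), Tgfbi Htra3 myeloid cells (102 and 103), dendritic cells (68 and 80), T cells (207 and 270) and NK cells (62 and 45). Dendritic cells and T cells were split into cDC1, mature and Cd209a dendritic cells and into CD8, regulatory-like and other T cells, and the smallest of these held as few as 18 cells. Haemoglobin RNA was far more abundant in the NAM library, at 391 against 19.6 counts per 1000000 UMIs of the class (CPM) in macrophages and 6545 against 15.5 in monocytes, where cells with 10 or more haemoglobin UMIs numbered 4 macrophages, 1 monocyte and 1 T cell in the NAM library and 0 in the untreated one. Copies of several members (Eno1b with 619 and 986 UMIs, Pgk1-rs7 with 74 and 92, Aldoart1 with 21 and 65 over all cells) can share reads with Eno1, Pgk1 and Aldoa, so those levels are uncertain.

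The question asked first was in which infiltrating cells these genes were most active. For 20 of the 37 the highest level among 15 non-overlapping classes was in the Mmp12 macrophages in both libraries, namely Slc2a1, 9 glycolytic enzymes (Gpi1, Pfkl, Aldoa, Tpi1, Gapdh, Pgk1, Pgam1, Eno1 and Pkm), Ldha, Mif, the sensors Egln1 and Egln3, and the targets Bnip3, Bnip3l, Ankrd37, Ero1l, Ndrg1 and Adm. The share of all genes with their highest level in this small class in both libraries was not computed. Mmp12 encodes macrophage elastase, a protease that cuts matrix. The regulatory-like T cells, defined by Foxp3, Il2ra, Ikzf2 and Ctla4, had the highest level of Hif1a in both libraries. Monocytes led for Slc16a3, the exporter of lactate from glycolytic cells. In all, 28 members had the same leading class in both libraries.

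**Figure D1:**
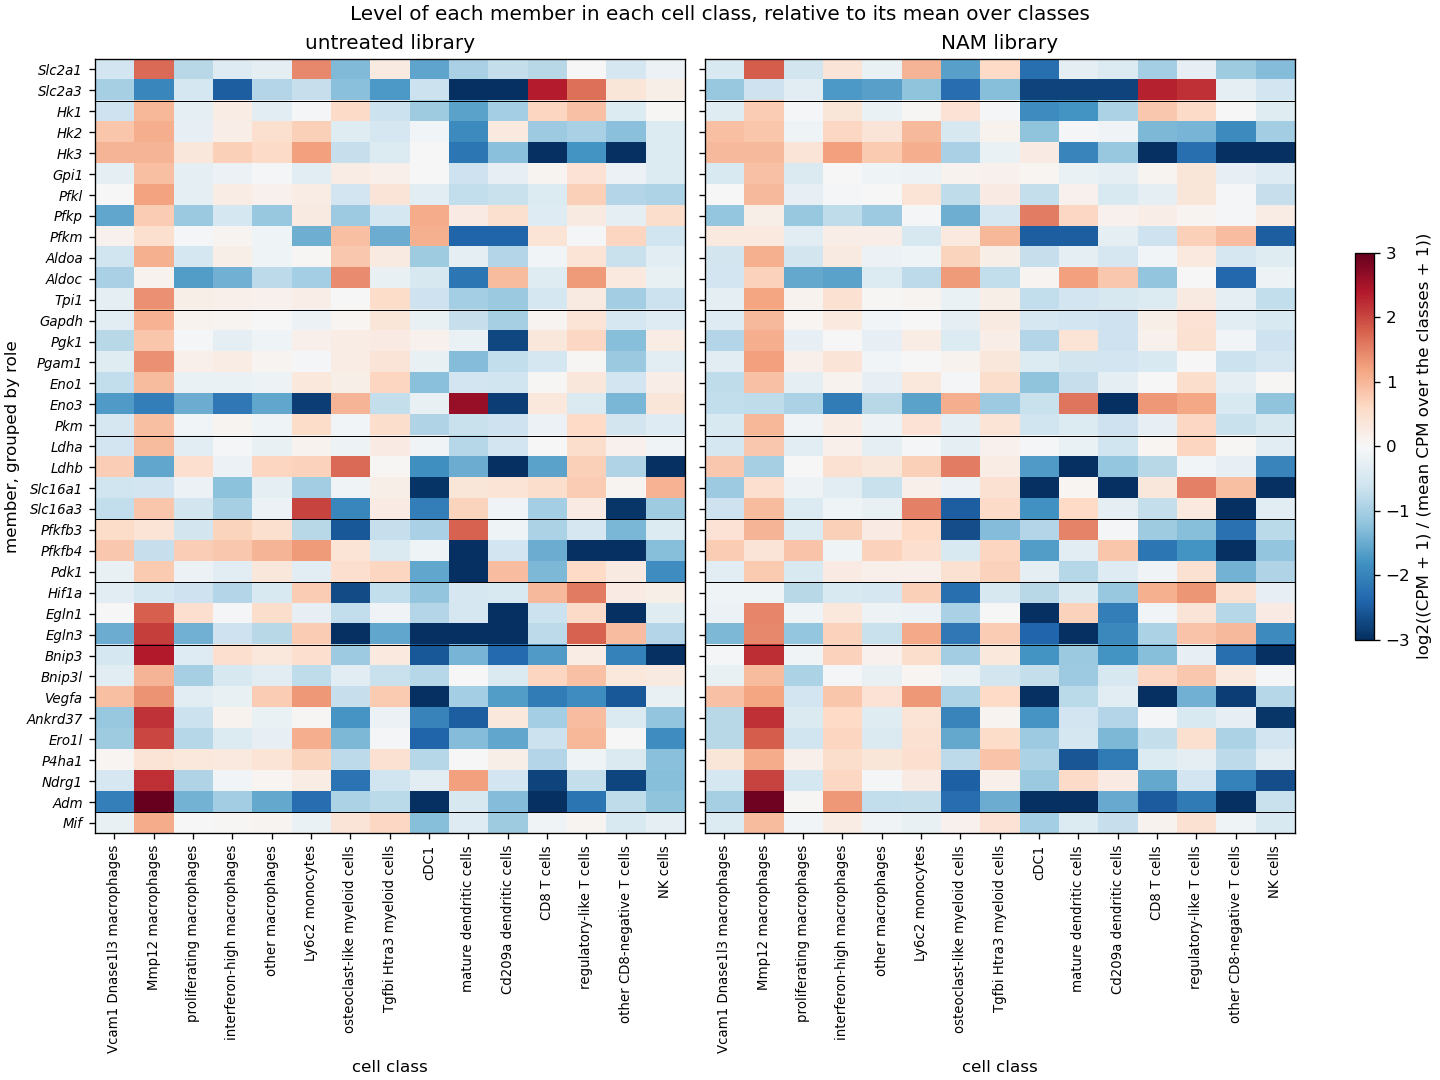
Level of each of the 37 members (rows, grouped by role) in 15 cell classes (columns) of each library, coloured as log2 of CPM plus 1 over the member's mean CPM over the classes plus 1, capped at 3 in either direction. The column of Mmp12 macrophages is red for most rows in both libraries, and 20 members peaked there in both. The share of all genes that peaked there was not computed.

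Summed over the 18 enzymes (the genes of upper and lower glycolysis with Ldha and Ldhb), the Mmp12 macrophages had 15321 and 17185 CPM in the untreated and the NAM library. Regulatory-like T cells followed with 10098 and 11857 CPM, and the Tgfbi Htra3 myeloid cells with 9738 and 10512 CPM. The Vcam1 Dnase1l3 macrophages, at 5425 and 6324 CPM, were among the lower classes, as were the 3 dendritic classes, between 4592 and 6738 CPM. The 8 hypoxia targets summed to 2058 and 2198 CPM in the Mmp12 macrophages, 721 and 833 CPM in monocytes and 445 and 560.0 CPM in the Vcam1 Dnase1l3 macrophages. These sums did not follow each other in every class. Osteoclast-like myeloid cells, whose gate sums Ctsk, Acp5, Mmp9 and Atp6v0d2, had enzymes at 8606 and 8773 CPM but targets at only 279 and 302 CPM, close to cDC1 with 225 and 253 CPM.

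**Figure D2:**
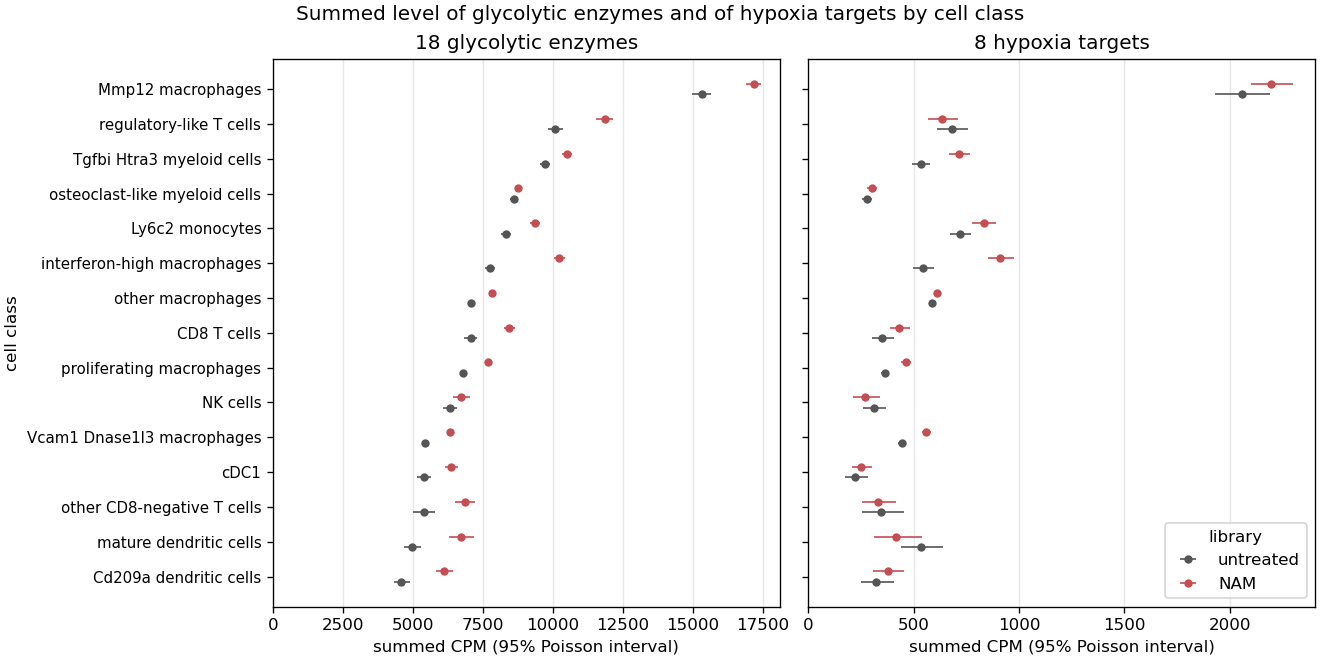
Summed CPM of the 18 glycolytic enzymes (left) and the 8 hypoxia targets (right) in 15 cell classes of the untreated and the NAM library, with 95% Poisson intervals as bars. The Mmp12 macrophages lie furthest right in both panels, at 15321 and 17185 CPM for the enzymes and 2058 and 2198 CPM for the targets.

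Single members departed from this picture. Slc2a3, a glucose transporter of high affinity, was at 60.2 and 32.6 CPM in CD8 T cells and at 44.1 and 27.7 CPM in all T cells, but at 5.36 and 2.01 CPM in macrophages. Both T cell values exceeded both macrophage values. Slc2a1, the other transporter, was at 170.3 and 163 CPM in monocytes, 203 and 288 CPM in Mmp12 macrophages and 34.1 and 39.1 CPM in CD8 T cells. Among the hexokinases, which trap glucose in the cell, Hk3 was at 55.6 and 69.3 CPM in monocytes and 2.01 and 0 CPM in CD8 T cells, where the NAM library had none of its UMIs (3 counts would be 3.92 CPM). Hk1 was at 46.2 and 49.6 CPM in CD8 T cells and 28.2 and 28.7 CPM in monocytes.

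The platelet-type phosphofructokinase Pfkp, a subunit of the enzyme that commits sugar to glycolysis, was highest in cDC1, at 244 and 365 CPM, against 52.1 and 61.6 CPM in macrophages. Mature dendritic cells led for Eno3 and for Pfkfb3, the latter at 71.2 and 74.0 CPM. Eno3, the enolase of muscle, was at 240.2 and 81.5 CPM in mature dendritic cells, a class of 23 and 18 cells, and at 4.61 and 0 CPM in Cd209a dendritic cells. The osteoclast-like myeloid cells had Aldoc, an aldolase, at 63.6 and 69.8 CPM and Ldhb, the lactate dehydrogenase subunit that favours pyruvate, at 48.7 and 51.3 CPM, against 11.7 and 18.9 CPM and 22.0 and 22.4 CPM in macrophages. Hif1a itself was at 360.1 and 278 CPM in regulatory-like T cells, 207 and 180.3 CPM in monocytes and 17.99 and 22.2 CPM in osteoclast-like cells, and at 83.6 and 99.7 CPM in the Mmp12 macrophages.

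The contrast within macrophages was then examined library by library. A member was counted when the ratio of Mmp12 to Vcam1 Dnase1l3 macrophages was at least 1.5-fold the same way in both libraries, with 100 or more UMIs over the 2 subsets and libraries. Of 34 members with enough UMIs, 25 were higher in the Mmp12 subset and 1 was lower. Over all 6694 genes with enough UMIs, 5.9% were higher and 8.68% lower by this rule. The median log2 ratio for the members was 1.47 (untreated) and 1.36 (NAM), and -0.08 and -0.04 for all genes. By role, 6 of 8 hypoxia targets, 7 of 9 measured genes of upper glycolysis, 5 of 6 of lower glycolysis, 2 of 3 oxygen sensors and 2 of 3 lactate genes were higher. Leaving out the 5 top cells per gene, which takes 5 of the 39 untreated cells of the Mmp12 subset, 21 of 31 members were higher and 3 lower, and with cells thinned to 3000 UMIs 17 of 22 were higher and 0 lower. A member high in 1 subset can reach the minimum through that subset alone, as Adm and Egln3 did through the Mmp12 and Ldhb through the Vcam1 Dnase1l3 macrophages, so that the filter helped to choose them. With the minimum applied to the UMIs that the lower level would give over both subsets, 23 of 30 members were higher and 0 lower, against 5.98% and 6.52% of all genes.

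Among the targets, Adm, which encodes the vasodilating peptide adrenomedullin, had 64 UMIs (134 CPM) in the Mmp12 and 11 UMIs in the Vcam1 Dnase1l3 macrophages of the untreated library, and 85 (97.4 CPM) and 26 UMIs in the NAM library. Its log2 ratio was 5.82 (95% interval 4.89 to 6.90) and 4.14 (95% interval 3.49 to 4.83), so its size rests on few molecules in the lower subset. Ankrd37, a small ankyrin repeat protein, was at 136 and 157 CPM in the Mmp12 and 12.9 and 18.5 CPM in the Vcam1 Dnase1l3 subset, a log2 ratio of 3.40 (95% interval 2.87 to 3.93) and 3.09 (95% interval 2.69 to 3.49). Ero1l, an oxidase that forms disulphide bonds in the endoplasmic reticulum, was at 229.8 and 230.4 CPM against 26.6 and 35.9 CPM. Both levels in the higher subset exceeded both in the lower one for each of these genes.

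Bnip3, which marks mitochondria for removal by autophagy, was at 625 and 749.5 CPM in the Mmp12 and 82.8 and 157 CPM in the Vcam1 Dnase1l3 macrophages, with a log2 ratio of 2.92 (95% interval 2.69 to 3.14) and 2.25 (95% interval 2.097 to 2.40). Its relative Bnip3l, with a similar role, differed less, with log2 ratios of 1.35 and 1.17. Ndrg1, a stress-induced growth regulator, was at 472 and 488 CPM against 72.3 and 82.4 CPM. Vegfa, the vascular growth factor, and P4ha1, a collagen prolyl hydroxylase, did not reach 1.5-fold in both libraries. P4ha1 was at 64.8 and 108 CPM against 50.6 and 63.9 CPM and Vegfa at 119 and 91.7 CPM against 87.7 and 73.7 CPM, with log2 ratios of 0.36 and 0.75 and of 0.44 and 0.31. Among the oxygen sensors, Egln3 had log2 ratios of 3.85 and 3.00 from 21 and 27 UMIs in the lower subset, and Egln1 of 1.85 and 1.71. Hif1a RNA was at 83.6 and 99.7 CPM against 96.1 and 99.6 CPM, with log2 ratios of -0.20 and 0.00 whose intervals contained 0.

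Bnip3 was also seen in more cells of the Mmp12 subset once each cell was thinned to 3000 UMIs. It was then seen in 76.9% (95% Clopper-Pearson interval 60.7 to 88.9) of Mmp12 and 17.0% (13.7 to 20.9) of Vcam1 Dnase1l3 macrophages in the untreated library. In the NAM library the shares were 76.6% (65.6 to 85.5) and 31.2% (26.9 to 35.7). Unthinned, they were 89.7% and 42.4% for the untreated and 97.4% and 57.3% for the NAM library, at median depths of 11893 and 10069.5 UMIs, and 10497 and 10330 UMIs. NK cells, the class with the lowest Bnip3, had it in 3.23% and 2.22% of thinned cells, and a share at or below theirs can be background from free RNA.

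Enzymes of upper and of lower glycolysis were higher in the Mmp12 subset. Aldoa, the main aldolase, was at 2528 and 3111 CPM against 801 and 1003 CPM, with a log2 ratio of 1.66 (95% interval 1.56 to 1.75) and 1.63 (95% interval 1.57 to 1.70). Log2 ratios in the untreated and the NAM library were 1.68 and 1.48 for Tpi1, 1.38 and 1.36 for Gapdh, 1.73 and 1.57 for Pgam1, 1.70 and 1.65 for Eno1 and 1.41 and 1.46 for Pkm, which makes pyruvate. They were 1.71 and 1.99 for Pgk1, 1.17 and 1.34 for Gpi1, 1.66 and 1.15 for Hk1, 1.24 and 1.00 for Pfkl, the liver-type phosphofructokinase, and 2.33 and 1.36 for Pfkp. Aldoc had 1.14 and 1.31 from 12 and 40 UMIs in the Mmp12 subset. Hk2, Hk3 and Eno3 did not reach the fold in both libraries. Hk2, the inducible hexokinase, was at 113 and 68.8 CPM against 94.6 and 71.6 CPM.

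Among the genes that handle lactate and glucose, Slc2a1 was at 203 and 288 CPM against 41.4 and 58.4 CPM, a log2 ratio of 2.29 (95% interval 1.92 to 2.65) and 2.30 (95% interval 2.05 to 2.55). Slc16a3 had log2 ratios of 1.57 and 1.59 and Ldha, which makes lactate, of 1.52 and 1.35. Ldhb went the other way, with only 2 and 7 UMIs in the Mmp12 subset, at 4.18 and 8.02 CPM against 24.7 and 30.6 CPM, a log2 ratio of -2.56 (95% interval -5.62 to -0.68) and -1.93 (95% interval -3.27 to -0.85). Pdk1, the kinase that keeps pyruvate out of mitochondria, had log2 ratios of 1.08 and 1.19 with an interval that contained 0 in the untreated library, while Pfkfb3 and Pfkfb4, which make an activator of phosphofructokinase, did not reach the fold, with -0.15 and 0.62 for Pfkfb3 and -1.72 and -0.39 for Pfkfb4. Mif, named for its effect on macrophage migration, had 1.35 and 1.35. Slc2a3, Slc16a1 and Pfkm had too few UMIs.

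**Figure D3:**
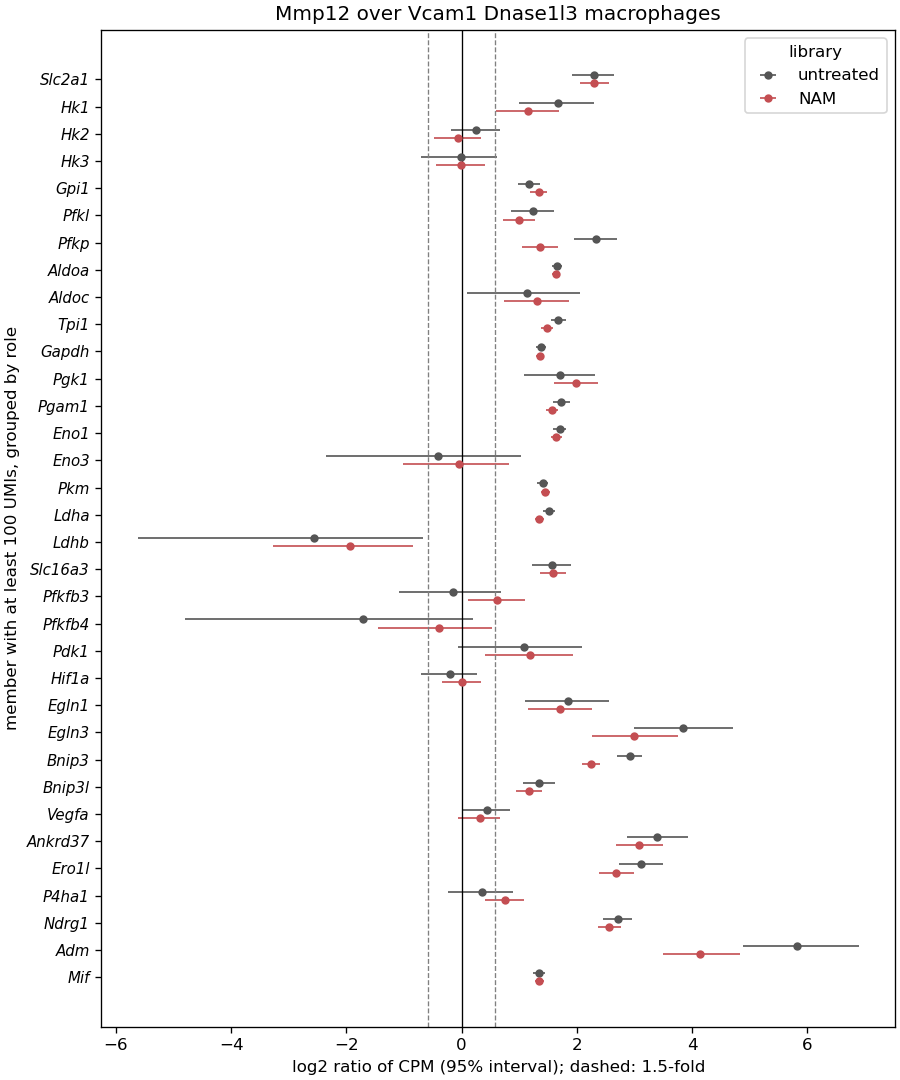
Log2 ratio of CPM in Mmp12 over Vcam1 Dnase1l3 macrophages for the 34 members with at least 100 UMIs, in the untreated and the NAM library, with 95% intervals as bars and 1.5-fold as dashed lines. Most members lie right of the upper dashed line in both libraries, Adm furthest, and Ldhb lies left of the lower one in both.

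Of 58 further genes of these pathways, 35 had enough UMIs, and 11 of these were higher and 0 lower. The neuronal enolase Eno2 had log2 ratios of 2.52 and 2.18, Fam162a 1.79 and 1.75, Higd1a 1.66 and 1.60 and Bhlhe40, a transcriptional repressor, 1.66 and 1.76. Lipid droplet genes were among them, Plin2, a coat protein, with 1.86 and 1.89 and Hilpda, which blocks lipid breakdown, with 1.54 and 1.70. The genes of glycogen handling that were higher were Gbe1 with 1.89 and 1.08, Pygl with 1.26 and 1.06 and Pgm2 with 1.27 and 1.19. Ddit4, an inhibitor of mTORC1, and Cited2, a regulator of HIF-1 activity, completed the list.

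Markers of tumour epithelium summed to 6.27 and 12.6 CPM in the Mmp12 and 10.5 and 17.4 CPM in the Vcam1 Dnase1l3 macrophages, with 2 or 3 of 5 genes detected and Epcam and Cldn4 at 0 in both subsets. Fibroblast markers summed to 8.36 and 25.2 CPM in the former and 14.8 and 20.4 CPM in the latter, with 1 to 4 of 4 genes detected. Neutrophil markers were at 27.2 and 37.8 CPM against 54.1 and 109.8 CPM. The part of these cells in the result was not tested.

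The bases just before a listed start of transcription are shown for the 5 members with the highest ratios that have an entry in the RefSeq promoter table (build GRCm38.p6), and for Ldhb, the member with the opposite ratio. Capitals mark each ACGTG or GCGTG on either strand (CACGT or CACGC on the strand shown), the core of the element that HIF-1 binds. Each run holds the 250 bases before the first start listed, 5′ to 3′ on the strand of the gene. Another annotation, GENCODE vM21, places some starts elsewhere. There the Ankrd37 run lies wholly within the gene (chr8:45996902-46005707), most of the Ero1l run lies within its gene (end at 45318771), and the Bnip3 run overlaps its gene by a few bases. Adm lies at chr7:110627407-110627656 (plus strand), Egln3 at chr12:54203875-54204124 (minus strand), Ankrd37 at chr8:45999851-46000100 (minus strand), Ero1l (listed as Ero1a) at chr14:45318573-45318822 (minus strand), Bnip3 at chr7:138909507-138909756 (minus strand) and Ldhb at chr6:142507958-142508207 (minus strand).
Adm: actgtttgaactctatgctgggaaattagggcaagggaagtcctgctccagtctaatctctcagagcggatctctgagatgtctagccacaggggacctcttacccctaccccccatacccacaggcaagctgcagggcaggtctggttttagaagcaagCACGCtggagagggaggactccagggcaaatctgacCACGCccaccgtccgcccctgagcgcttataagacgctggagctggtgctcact
Egln3: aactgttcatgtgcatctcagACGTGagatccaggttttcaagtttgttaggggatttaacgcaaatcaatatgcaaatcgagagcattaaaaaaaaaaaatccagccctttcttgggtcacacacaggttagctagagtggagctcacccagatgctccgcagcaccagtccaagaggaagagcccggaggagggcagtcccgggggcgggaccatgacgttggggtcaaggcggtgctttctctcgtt
Ankrd37: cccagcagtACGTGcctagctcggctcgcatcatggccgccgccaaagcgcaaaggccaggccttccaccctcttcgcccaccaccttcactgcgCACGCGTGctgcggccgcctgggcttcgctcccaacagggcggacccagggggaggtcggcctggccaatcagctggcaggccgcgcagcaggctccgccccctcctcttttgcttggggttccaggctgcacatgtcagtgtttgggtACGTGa
Ero1l: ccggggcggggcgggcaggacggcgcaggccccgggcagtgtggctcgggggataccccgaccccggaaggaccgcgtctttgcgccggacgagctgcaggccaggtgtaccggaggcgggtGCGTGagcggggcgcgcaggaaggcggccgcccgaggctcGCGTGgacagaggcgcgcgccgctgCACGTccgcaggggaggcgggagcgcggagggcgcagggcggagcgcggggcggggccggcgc
Bnip3: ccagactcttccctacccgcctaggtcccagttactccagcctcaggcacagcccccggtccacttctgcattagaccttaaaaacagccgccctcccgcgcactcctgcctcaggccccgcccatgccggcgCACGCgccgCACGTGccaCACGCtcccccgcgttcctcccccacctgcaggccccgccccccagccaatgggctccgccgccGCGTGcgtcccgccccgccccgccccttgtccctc
Ldhb: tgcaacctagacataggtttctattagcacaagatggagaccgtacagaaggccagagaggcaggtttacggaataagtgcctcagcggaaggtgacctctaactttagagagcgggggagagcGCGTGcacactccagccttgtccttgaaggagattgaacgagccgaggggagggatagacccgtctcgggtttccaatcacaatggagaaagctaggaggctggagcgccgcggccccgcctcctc

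Bnip3 had 5 matches, Ankrd37 4, Ero1l 3, Adm 2, and Egln3 and Ldhb 1 each, where overlapping matches count separately. Of the 34 members with an entry, 27 (79.4%) held at least 1 match before their first start. The share was 17 of 23 (73.9%) for members higher in the Mmp12 macrophages and 8 of 9 (88.9%) for measured members that were not, and Pfkm and Slc16a1, under the minimum of UMIs, each held a match. A match was held by 38.6% of all 32851 starts listed and by 59.7% of the 5212 matched genes with enough UMIs in the 2 subsets. A match describes the letters alone.

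Ly6c2 monocytes were set against macrophages which they can give rise to in tissue. Of 37 members 7 were higher and 3 lower by at least 1.5-fold in both libraries, against 7.48% of all genes higher and 21.3% lower. The median log2 ratio was 0.27 for the members in both libraries, and -0.26 and -0.24 for all genes. Slc16a3 had the highest ratio in the untreated and Egln3 in the NAM library. Slc16a3 was at 468 and 445 CPM in monocytes and 90.6 and 130.0 CPM in macrophages, a log2 ratio of 2.37 (95% interval 2.23 to 2.51) and 1.77 (95% interval 1.63 to 1.92). Slc2a1 had log2 ratios of 1.81 and 1.13, Hif1a 1.252 and 1.17, Pfkp 1.37 and 1.00, Egln3 1.70 and 1.79, Ero1l 1.48 and 0.74 and Vegfa 0.68 and 0.83. Of the lower enzymes, Eno1 had 0.57 and 0.58 and Gapdh -0.14 and 0.03. The 3 that were lower, Pfkm, Eno3 and Adm, rest on few UMIs in monocytes, and none was lower once ratios were centred on the median of all genes (10 higher). Without the 5 cells with most UMIs of each gene, 5 were higher and 5 lower. Pfkm reached the minimum through the macrophages, and with the minimum at the lower level 7 of 36 were higher and 2 lower. Of 42 other pathway genes measured, 8 were higher and 7 lower.

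Mature dendritic cells, which express Ccr7 and Fscn1, had enough UMIs for 12 members beside Cd209a dendritic cells. Slc16a3 alone reached 1.5-fold in both libraries with a log2 ratio of 0.78 (95% interval 0.01 to 1.59) and 0.90 (95% interval 0.17 to 1.63), against 10.1% of all genes higher and 12.1% lower, and without the 5 cells with most of its UMIs the mean log2 ratio was -0.92. T cells against NK cells gave 4 higher and 0 lower of 22 members, where 9.32% of all genes were higher and 5.13% lower. These were Bnip3, at 80.2 and 84.5 CPM in T cells and 12.4 and 3.57 CPM in NK cells, Hif1a, at 280.3 and 235 CPM and 136 and 92.9 CPM, Pfkl with log2 ratios of 1.11 and 0.69 and Hk1 with 0.65 and 1.04. NK cells numbered 62 and 45, Bnip3 rests there on 5 and 1 UMIs, and without the 5 cells with most UMIs of each gene 13 members were higher. Bnip3 and Hk1 reached the minimum through the T cells, and with the minimum at the lower level 2 of 16 were higher.

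The next question was how the levels differed between NAM and untreated tumours. In all macrophages, 8 of 37 members were higher in the NAM library by a log2 ratio of at least 0.3219 (a ratio of 5 to 4) and 3 lower by as much, against 4.64% of 9737 genes higher and 12.8% lower. The members' median log2 ratio was 0.22 and that of all genes -0.03, and 31 of 37 members lay above 0, against 4227 of 9737 genes. The summed enzymes were at 6869 and 7964 CPM in the untreated and the NAM library, a log2 ratio of 0.21 (95% interval 0.20 to 0.22). The hypoxia targets were at 548 and 651 CPM, a log2 ratio of 0.25 (95% interval 0.21 to 0.28). The Mmp12 subset made up 2.00% (1.43 to 2.72) of macrophages in the untreated and 3.58% (2.84 to 4.46) in the NAM library, intervals of counting error alone that did not overlap. Markers of tumour epithelium were at 9.54 and 13.9 CPM in macrophages and neutrophil markers at 65.7 and 77.1 CPM. Those of Cd209a dendritic cells were at 35.7 and 19.7 CPM, and the part of such cells in the differences was not tested. With ratios centred on the median of all genes 14 members were higher and 3 lower, and at 1.5-fold 5 were higher and 1 lower.

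Members of one family went different ways in macrophages. Slc2a1 was at 48.6 and 74.8 CPM in the untreated and the NAM library, a log2 ratio of 0.62 (95% interval 0.51 to 0.74), whereas Slc2a3 was at 5.36 and 2.01 CPM, a log2 ratio of -1.42 (95% interval -1.95 to -0.90) from 109 and 45 UMIs. Slc2a3 reached the minimum through the untreated library. With the minimum at the lower level 8 of 36 members were higher and 2 lower, against 4.24% and 12.0% of all genes. Hk3, the hexokinase of myeloid cells, was at 37.8 and 57.1 CPM, a log2 ratio of 0.60 (95% interval 0.47 to 0.73), and Hk2 at 73.5 and 53.2 CPM, a log2 ratio of -0.47 (95% interval -0.58 to -0.35). Hk1 differed less, at 23.2 and 25.6 CPM, with an interval that contained 0. Over the non-overlapping classes with at least 100 UMIs, Hk2 lay below 0 in 7 of 7 and Hk3 above 0 in 5 of 5. All classes come from the same 2 libraries, and the share of all genes with 1 direction throughout was not computed.

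Further along the pathway Pgk1 was at 30.8 and 46.3 CPM, a log2 ratio of 0.59 (95% interval 0.44 to 0.73), and Aldoc at 11.7 and 18.9 CPM, a log2 ratio of 0.70 (95% interval 0.47 to 0.93). Other enzymes differed by less. Aldoa had a log2 ratio of 0.30 (95% interval 0.28 to 0.33), Pkm 0.25 (95% interval 0.22 to 0.27), Eno1 0.16 (95% interval 0.13 to 0.19) and Gapdh 0.10 (95% interval 0.08 to 0.12), none past the fold. Ldha, at 902 and 1127 CPM with a log2 ratio of 0.3208 (95% interval 0.29 to 0.35), lay just under the threshold, as did Pfkl with 0.3152. Slc16a3, which exports the lactate, was at 90.6 and 130.0 CPM, a log2 ratio of 0.52 (95% interval 0.44 to 0.61). Aldoa, Pkm, Ldha and Mif lay above 0 in 15 of 15 classes, where again the classes share their libraries and the share of all genes was not computed.

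Hypoxia targets were divided as well. Bnip3 was at 136 and 193 CPM in macrophages, a log2 ratio of 0.51 (95% interval 0.44 to 0.58), and Adm at 6.64 and 12.0 CPM, a log2 ratio of 0.85 (95% interval 0.54 to 1.16). Egln3, the inducible oxygen sensor, had 0.43 (95% interval 0.14 to 0.73). Vegfa was lower in the NAM library, at 72.7 and 56.2 CPM, a log2 ratio of -0.37 (95% interval -0.48 to -0.26). Hif1a RNA, at 86.8 and 80.4 CPM, did not reach the fold, and neither did Ankrd37, Ero1l, Ndrg1, Bnip3l and P4ha1, whose log2 ratios ran from 0.08 to 0.31. Of 42 other pathway genes measured, 1 was higher (Gbe1, a glycogen branching enzyme, 0.34) and 4 lower, with Bhlhe40 lowest at -0.50, and their median was 0.02.

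**Figure D4:**
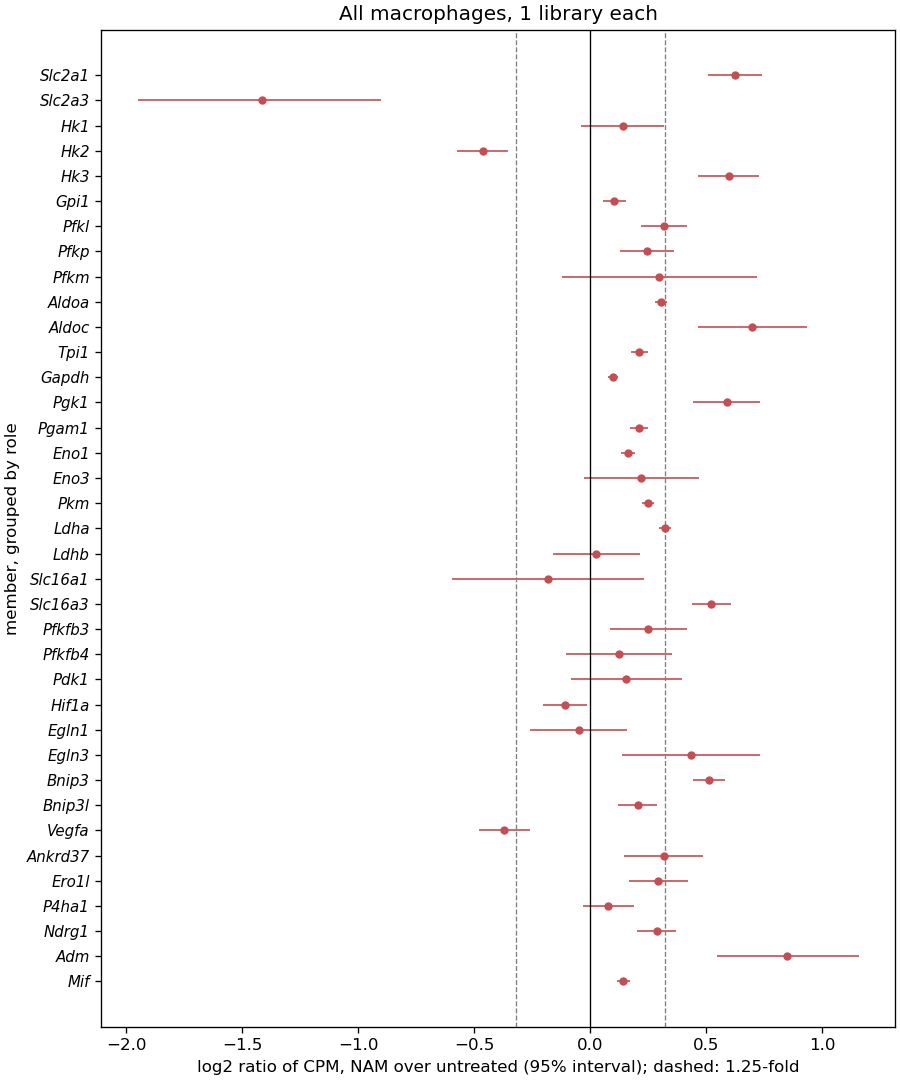
Log2 ratio of CPM, NAM over untreated, for the 37 members in all macrophages, with 95% intervals of counting error as bars and the threshold in either direction as dashed lines. Most points lie between 0 and the upper dashed line, and Hk2, Slc2a3 and Vegfa lie left of the lower one.

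Each macrophage subset was then compared in the same way. In the Vcam1 Dnase1l3 macrophages 14 of 31 members were higher and 1, Hk2, lower in the NAM library, against 7.4% and 15.1% of all genes, with a median of 0.29 (all genes -0.03). Bnip3 was at 82.8 and 157 CPM there, a log2 ratio of 0.93 (95% interval 0.75 to 1.11), Slc16a3 at 68.9 and 99.8 CPM with 0.54 (95% interval 0.33 to 0.75), and Slc2a1 at 41.4 and 58.4 CPM with 0.50 (95% interval 0.23 to 0.77). The others that were higher were Aldoc (0.70), Pgk1 (0.59), Pfkp (0.56), Ankrd37 (0.52), Eno3 (0.46, with an interval that contained 0), Ero1l (0.43), Hk3 (0.41), Pfkl (0.38), Ldha (0.34), P4ha1 (0.34) and Aldoa (0.3229), and Hk2 had -0.40. With all gate minimums doubled 6 of 24 were higher and 2 lower, with cells thinned 7 of 21 and 2, and at 1.5-fold 3 were higher and 0 lower. Neutrophil markers were at 54.1 and 109.8 CPM in this subset, markers of tumour epithelium at 10.5 and 17.4 CPM and of Cd209a dendritic cells at 50.2 and 29.95 CPM, and their part was not tested.

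In the Mmp12 macrophages, 39 and 77 cells, 4 of 24 members were higher and 4 lower, against 14.9% and 12.7% of all genes, with a median of 0.14 (all genes 0.01). Higher were Pgk1, at 64.8 and 118 CPM with a log2 ratio of 0.87 (95% interval 0.27 to 1.49), Slc2a1 with 0.51 (95% interval 0.16 to 0.86), Slc16a3 with 0.55 (95% interval 0.21 to 0.90) and P4ha1 with 0.73 (95% interval 0.13 to 1.37). Lower were Hk2, at 113 and 68.8 CPM with -0.71 (95% interval -1.27 to -0.16), Pfkp with -0.41 (95% interval -0.81 to -0.00), and Vegfa and Adm, whose intervals contained 0. Adm was at 134 and 97.4 CPM, a log2 ratio of -0.46, and leaving out its 5 top cells per library, of 39 and 77, turned the ratio to 0.79. With gate minimums doubled 2 of 19 were higher and 1 lower, and with cells thinned 2 of 13 and 0. Pgk1 and P4ha1 reached the minimum through the NAM library and Hk2 through the untreated one. With the minimum at the lower level 2 of 21 were higher and 3 lower, against 11.5% and 11.1% of all genes. Markers of Ly6c2 monocytes summed to 58.5 and 202 CPM in this subset, and their part was not tested.

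The ungated macrophages, the largest of the macrophage classes by cell number, were compared next. Of 36 members 8 were higher and 3 lower, against 5.38% and 13.5% of all genes, with a median of 0.11 (all genes -0.02). The summed targets were at 587 and 609.8 CPM, a log2 ratio of 0.06 (95% interval 0.01 to 0.10), with 5 of the 8 above 0 and 3 below (all genes, 3982 of 8552 above 0). The enzymes were at 7071 and 7841 CPM, with 0.15 (95% interval 0.14 to 0.16). Higher were Adm (0.86), Hk3 (0.68), Aldoc (0.66), Pgk1 (0.51), Slc2a1 (0.48), Slc16a3 (0.38), Pfkm (0.48) and Egln3 (0.35), and lower Hk2 (-0.55), Vegfa (-0.54) and Slc16a1 (-0.42), where the intervals of Pfkm, Egln3 and Slc16a1 contained 0. Adm and Pfkm reached the minimum through the NAM library and Slc16a1 through the untreated one. With the minimum at the lower level 6 of 33 were higher and 2 lower, against 4.89% and 12.4% of all genes. At 1.5-fold 3 were higher and 0 lower. Markers of red cells were at 21.9 and 680.2 CPM in these macrophages, with 3811 of the 8397 NAM UMIs in 1 cell, and without cells holding 10 or more haemoglobin UMIs 8 members were higher and 3 lower. Those of Cd209a dendritic cells were at 35.8 and 18.8 CPM, of Ly6c2 monocytes at 156 and 119 CPM and of tumour epithelium at 9.73 and 14.6 CPM, and their part was not tested.

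In the interferon-high macrophages, 70 and 74 cells, 17 of 22 members were higher and 0 lower, against 14.7% and 13.1% of all genes, with a median of 0.47 (all genes 0.02). Slc16a3 was at 56.9 and 141 CPM, a log2 ratio of 1.31 (95% interval 0.83 to 1.81), Ero1l at 42.1 and 102 CPM with 1.27 (95% interval 0.71 to 1.86), and Slc2a1 at 46.7 and 106 CPM with 1.18 (95% interval 0.65 to 1.75). Vegfa was higher here, at 39.8 and 71.8 CPM, with 0.85 (95% interval 0.24 to 1.48). The others were Hk3 (1.00), Ndrg1 (0.93), Bnip3 (0.61), Tpi1 (0.56), Bnip3l (0.51), Ldha (0.49), Eno1 (0.48), Mif (0.46), Pgam1 (0.41), Aldoa (0.37), Gpi1 (0.36), Pkm (0.35) and Gapdh (0.34). Summed enzymes were at 7755 and 10240.5 CPM and targets at 545 and 913 CPM. With cells thinned to 3000 UMIs 7 of 9 were higher and Ero1l, then under the minimum, had -0.53, while with gate minimums doubled 12 of 12 were higher and Vegfa, then under the minimum, had -0.26. At 1.5-fold 7 were higher. Hk3, Slc2a1, Vegfa and Ero1l reached the minimum through the NAM library, and with the minimum at the lower level 13 of 18 were higher. Markers of Ly6c2 monocytes were at 534 and 313 CPM in this class, and their part was not tested. In the osteoclast-like myeloid cells 1 of 25 members (Bnip3, 0.50) was higher and 3 lower (Hk2, -0.59, Eno3, -0.49, and Vegfa, -0.48, with an interval that contained 0), against 8.91% and 11.4% of all genes, with a median of 0.02, and once cells were thinned 0 of 10 were past the fold and Bnip3 had -0.18. Vegfa reached the minimum there through the untreated library. With the minimum at the lower level 1 of 23 was higher and 2 lower, against 7.67% and 9.59% of all genes. These classes, like the ungated and proliferating macrophages, the Tgfbi Htra3 cells and the CD8 and regulatory-like T cells, were singled out after their values were seen, and the differences between them were not tested.

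In the proliferating macrophages 12 of 29 members were higher and 3 lower, against 8.13% and 11.7% of all genes, with a median of 0.19. Bnip3 had 0.70 (95% interval 0.50 to 0.90), Slc2a1 0.68 (95% interval 0.35 to 1.02), Ndrg1 0.61 (95% interval 0.34 to 0.87) and Slc16a3 0.58 (95% interval 0.36 to 0.80), and the summed targets were at 365 and 465 CPM, with 0.35 (95% interval 0.24 to 0.45). Hk3 (0.51), Ero1l (0.47), Pfkl (0.44), Pgk1 (0.41) and Ldha (0.33) were also higher, as were Pfkfb3 (0.52), Pfkfb4 (0.44) and Ankrd37 (0.40), whose intervals contained 0. Pfkfb3 and Pfkfb4 reached the minimum through the NAM library. With the minimum at the lower level 10 of 27 were higher and 3 lower, against 7.44% and 9.87% of all genes. Lower were Vegfa (-0.48), Hk2 (-0.36) and Hif1a (-0.36). With cells thinned 4 of 13 were higher and 0 lower, and at 1.5-fold 3 of 29 were higher and 0 lower. Markers of neutrophils were at 56.4 and 36.8 CPM here and those of red cells at 14.9 and 37.1 CPM, and their part was not tested.

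In the Tgfbi Htra3 myeloid cells 7 of 21 members were higher and 1 lower, against 11.1% and 15.8% of all genes, with a median of 0.19 (all genes -0.05). They were Ndrg1 (0.96), Ero1l (0.79), Slc16a3 (0.78), Slc2a1 (0.72), Pgk1 (0.56), Bnip3 (0.47) and P4ha1 (0.42), and Vegfa was lower (-0.40), where the intervals of P4ha1 and Vegfa contained 0. Pgk1 reached the minimum through the NAM library. With the minimum at the lower level 6 of 20 were higher and 1 lower, against 9.20% and 13.2% of all genes. With cells thinned 1 of 11 was higher and Slc2a1, Pgk1 and Bnip3 changed sign, and with gate minimums doubled 1 of 12 was higher and Ndrg1 changed sign. Without the 5 cells with most UMIs of each gene, 4 were higher and 0 lower. Markers of Ly6c2 monocytes were at 478 and 408 CPM in these cells and those of tumour epithelium at 13.8 and 3.63 CPM, and their part was not tested.

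**Figure D5:**
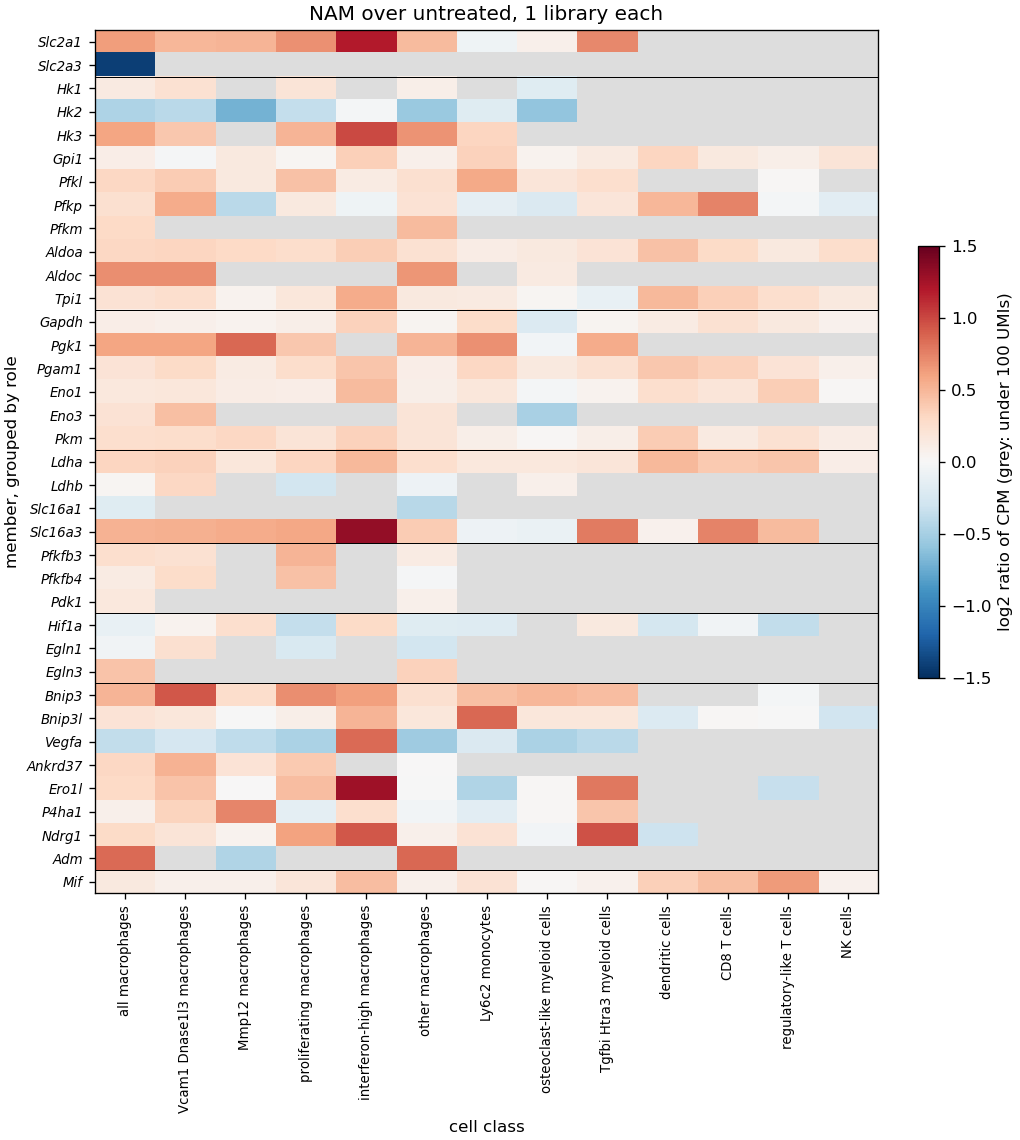
Log2 ratio of CPM, NAM over untreated (colour, capped at 1.5), of the 37 members (rows, grouped by role) in all macrophages and further cell classes (columns), where grey marks under 100 UMIs. The row of Hk2 is blue or near white, the row of Hk3 red, and the column of interferon-high macrophages holds the strongest reds. Vegfa is red in that column, though not among the strongest, and blue in most other classes with enough UMIs.

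Outside the macrophages, fewer members had enough UMIs. In monocytes 5 of 23 were higher and 1 lower, against 14.1% and 17.6% of all genes, with a median of 0.15. Bnip3l was at 81.1 and 148 CPM, a log2 ratio of 0.86 (95% interval 0.48 to 1.26), Pgk1 had 0.68, Pfkl 0.56, Bnip3 0.46 and Gpi1 0.34, and Ero1l was lower, at 122 and 89.1 CPM, with -0.45 (95% interval -0.86 to -0.06). Pgk1 reached the minimum through the NAM library. With the minimum at the lower level 4 of 22 were higher and 1 lower, against 12.2% and 15.3% of all genes. Of the 6608 haemoglobin UMIs in NAM monocytes 6558 came from 1 cell, and without cells holding 10 or more haemoglobin UMIs 6 members were higher and 1 lower. In dendritic cells 8 of 14 members were higher and 0 lower, against 15.7% of all genes in either direction, with a median of 0.34. They were the enzymes Gpi1 (0.33), Pfkp (0.50), Tpi1 (0.49), Pgam1 (0.40), Pkm (0.38), Aldoa and Ldha, and Mif (0.36). Ldha was at 801 and 1125 CPM, a log2 ratio of 0.49 (95% interval 0.34 to 0.64), and Aldoa at 732 and 996 CPM, with 0.44 (95% interval 0.29 to 0.60), while the summed hypoxia targets stood at 347 and 319.7 CPM, with an interval that contained 0. With each cell weighted equally, 4 were higher and 3 lower, and with cells thinned 4 were higher and 0 lower. The make-up of the class differed, with 18 and 28 cDC1, 23 and 18 mature and 27 and 34 Cd209a cells, and markers of mature dendritic cells at 1955 and 897 CPM and of Ly6c2 monocytes at 1219 and 698 CPM, while Pfkp was highest in cDC1. Within each of them the summed enzymes were higher, with log2 ratios of 0.24 (95% interval 0.15 to 0.33) in cDC1, 0.43 (95% interval 0.31 to 0.56) in mature and 0.42 (95% interval 0.30 to 0.53) in Cd209a dendritic cells. Markers of other cells differed there too. Those of Ly6c2 monocytes were at 3198 and 1292 CPM in Cd209a and 627 and 933 CPM in mature dendritic cells, against 241 and 242 CPM in cDC1, those of NK cells at 27.7 and 95.3 CPM in Cd209a dendritic cells and 13.2 and 27.4 CPM in cDC1, and those of T cells at 13.3 and 51.8 CPM (3 and 7 UMIs) in mature dendritic cells, and their part was not tested.

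In T cells 7 of 21 members were higher and 1 lower, against 14.6% and 12.6% of all genes, with a median of 0.21 (all genes 0.04). Mif was at 861 and 1233 CPM, a log2 ratio of 0.52 (95% interval 0.40 to 0.63), Ldha at 1301 and 1628 CPM, with 0.3232 (95% interval 0.23 to 0.42), and Slc16a3 at 86.4 and 116 CPM, with 0.42 (95% interval 0.05 to 0.79). Eno3 (0.69), Ndrg1 (0.56), Pgk1 (0.46) and Pfkp (0.34) were higher and Ero1l (-0.40) lower, and for Ndrg1, Pgk1 and Ero1l the interval contained 0. Eno3 and Ndrg1 reached the minimum through the NAM library. With the minimum at the lower level 5 of 19 members were higher and 1 lower, against 12.1% and 10.3% of all genes. Without the 5% of cells with most UMIs, 3 were higher and 1 lower, and with cells thinned 2 were higher and 0 lower. The class held 95 and 146 CD8, 83 and 83 regulatory-like and 29 and 41 other cells. In CD8 T cells 6 of 13 members were higher and 0 lower, against 15.6% and 11.2% of all genes, namely Pfkp (0.75), Slc16a3 (0.74), Mif (0.45), Ldha (0.39), Tpi1 (0.35) and Pgam1 (0.35), and 2 of 11 once thinned. Slc16a3 reached the minimum there through the NAM library. With the minimum at the lower level 5 of 12 were higher and 0 lower, against 12.1% and 9.95% of all genes. Markers of NK cells were at 546 and 318 CPM in CD8 T cells and those of red cells at 22.1 and 8193 CPM, with 6234 of the 6278 NAM UMIs in 1 cell. Without that cell 5 of 12 members were higher and 0 lower, and the part of NK cells was not tested. In regulatory-like T cells 4 of 16 were higher and 2 lower, against 16.3% and 11.8%, with Mif (0.64), Slc16a3 (0.47), Ldha (0.42) and Eno1 (0.37) higher and Hif1a and Ero1l (-0.35, with an interval that contained 0) lower, and once thinned 0 of 11 were higher and 1 lower. Ero1l reached the minimum there through the untreated library. With the minimum at the lower level 4 of 15 were higher and 1 lower, against 14.1% and 9.76% of all genes. Summed targets had 0.30 (95% interval 0.03 to 0.57) in CD8 and -0.10 (95% interval -0.33 to 0.12) in regulatory-like T cells. Hif1a was at 360.1 and 278 CPM in regulatory-like T cells, a log2 ratio of -0.37 (95% interval -0.70 to -0.05). In that class NK markers were at 139 and 526 CPM and neutrophil markers at 14.1 and 212 CPM, and in all T cells at 379 and 514 CPM and 16.7 and 89.9 CPM. Markers of Cd209a dendritic cells were at 123 and 2.00 CPM in regulatory-like and 88.1 and 8.11 CPM in all T cells. Those of Ly6c2 monocytes were at 672 and 1004 CPM in regulatory-like T cells, and the part of these cells was not tested. Hif1a stood at 136 and 92.9 CPM in NK cells, and the part of such cells in these ratios was not tested. In NK cells 0 of 11 measured members were past the fold either way, against 16.4% and 16.1% of all genes, with a median of 0.08 and summed enzymes at 6330.0 and 6733 CPM.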

How the data were processed

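The authors made the libraries with the 10x Genomics 3′ chemistry, aligned reads to mm10 and counted UMIs with Cell Ranger, and deposited raw counts per gene and cell for 1 library per group. Per the study's methods, cells with few genes, under 3000 UMIs or a high mitochondrial share were removed. The lowest cell held 3001 UMIs, and the files summed to 29161823 UMIs for the untreated and 32090120 for the NAM library. Cells were placed in classes by summed marker UMIs, lymphoid gates first, and 234 and 313 cells met none. No doublet caller was run. UMIs were summed per class and scaled to CPM of the class total with exact Poisson intervals. Ratios have exact conditional binomial intervals (Python 3.11.15, numpy 2.4.6, scipy 1.17.1), checked on simulated data. A member counted as higher or lower at a log2 ratio of 0.3219 between libraries, or at 1.5-fold in both libraries between classes, with at least 100 UMIs. The design set another gate for the Mmp12 subset, with a gene that is not reported here, and the gate on Mmp12 alone, listed there as an alternative, was used throughout instead. Members, gene lists and gates were chosen with earlier results of these data known, and gate minimums after marker UMIs were seen. Members past a threshold are named. Promoter sequences come from RefSeq (GRCm38.p6), where 34 members matched, Ero1l under the name Ero1a. Alternatives covered gates, thinning, scaling, weighting, left-out cells, UMI minimums and folds.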

Additional observations from a re-analysis of the deposited data

Results flagged for a closer look

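Vegfa differed between NAM and untreated cells in opposite directions in 2 macrophage classes. In interferon-high macrophages the log2 ratio was 0.85 (95% interval 0.24 to 1.48), and in the ungated macrophages it was -0.54 (95% interval -0.68 to -0.39), a gap of 1.39 on the log2 scale. With gate minimums doubled the former was -0.26, and Vegfa reached the UMI minimum in that class through the NAM library. Vegfa lay below 0 in 7 of the 8 classes with enough UMIs. Ero1l had a log2 ratio of 1.27 (95% interval 0.71 to 1.86) in interferon-high macrophages and -0.45 (95% interval -0.86 to -0.06) in Ly6c2 monocytes, a gap of 1.73. Thinned to 3000 UMIs per cell, the former was -0.53, and Ero1l too reached the minimum in interferon-high macrophages through the NAM library. Pfkp had 0.75 (95% interval 0.23 to 1.29) in CD8 T cells and -0.41 (95% interval -0.81 to -0.0025) in Mmp12 macrophages, a gap of 1.16. Each gap sets the highest class against the lowest, among classes past the fold with intervals without 0, so it is a selected extreme. Each class is 1 pooled library per group, so these differences between classes were not tested, and the intervals cover counting error only.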

How the results depend on the processing

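Over 18 comparisons, 7 of them (interferon-high, ungated and proliferating macrophages, osteoclast-like and Tgfbi Htra3 cells, CD8 and regulatory-like T cells) chosen after seeing the data, and 13 alternative settings, of which 4 were chosen after seeing the data (gate minimums doubled, cells with 10 or more haemoglobin UMIs left out, shared barcodes left out, the minimum at the lower level), 168 of 234 counts of members past the fold were within 1.5 times the count reported. The count for Mmp12 over Vcam1 Dnase1l3 macrophages, 26, ran from 17 to 26. The cause of the other shifts was not tested, except that a higher fold or UMI minimum admits fewer members.

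Cells thinned to 3000 UMIs gave 17 for Mmp12 over Vcam1 Dnase1l3 macrophages and, for NAM over untreated, 9 in Vcam1 Dnase1l3 macrophages (15 reported), 2 in Mmp12 macrophages (8), 4 in dendritic cells (8), 2 in T cells (8), 7 in interferon-high macrophages (17), 0 in osteoclast-like cells (4), 4 in proliferating macrophages (15), 1 in Tgfbi Htra3 cells (8), 2 in CD8 (6) and 1 in regulatory-like T cells (6), and 0 for mature over Cd209a dendritic cells (1). Median of ratios scaling gave 17 in all macrophages (11) and 2 for T over NK cells (4). The stricter fold (1.5-fold between libraries, 2-fold between classes) gave 6 in all macrophages, 3 in Vcam1 Dnase1l3 and 3 in Mmp12 macrophages, 2 in monocytes (6), 0 in dendritic cells, 1 in T cells, 7 in interferon-high macrophages, 1 in osteoclast-like cells, 3 in ungated macrophages (11), 3 in proliferating macrophages, 4 in Tgfbi Htra3 cells, 2 in CD8 and 1 in regulatory-like T cells, 4 for monocytes over macrophages (10), 0 for mature over Cd209a dendritic cells and 2 for T over NK cells. A minimum of 20 UMIs gave 13 in monocytes, 19 in dendritic cells, 15 in T cells, 8 in NK cells (0), 5 for mature over Cd209a dendritic cells and 10 for T over NK cells, and no minimum gave 18, 28, 18, 24, 9 and 13 in the same order, 17 in Mmp12 macrophages and 9 in osteoclast-like cells. In interferon-high macrophages these minimums gave 26 and 28, in Tgfbi Htra3 cells 17 and 20, in CD8 T cells 15 and 24 and in regulatory-like T cells 15 and 19. The minimum at the lower level gave 5 in Mmp12 macrophages and 2 for T over NK cells. Gates with 1 more UMI gave 1 in NK cells. Equal weights per cell gave 0 for mature over Cd209a dendritic cells. Without the 5% of cells with most UMIs 4 members counted in T cells, 3 in CD8 and 2 in regulatory-like T cells, and without the 5 cells with most UMIs of the gene 4 counted in Tgfbi Htra3 cells, 2 for mature over Cd209a dendritic cells and 13 for T over NK cells. Doubled gates gave 8 in Vcam1 Dnase1l3 and 3 in Mmp12 macrophages, 1 in Tgfbi Htra3 cells, and 2 for mature over Cd209a dendritic cells.

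The 164 values of members past the fold gave 1467 log2 ratios under alternatives that keep the fold and minimum, of which 1371 stayed within the 95% interval of the value reported, 85 lay outside it and 11 changed sign. In Mmp12 macrophages, NAM over untreated, these were Vegfa (0.019 thinned) and Adm (0.79 without its 5 top cells). In interferon-high macrophages Vegfa had -0.26 with gates doubled and Ero1l -0.53 thinned, and in osteoclast-like cells Bnip3 had -0.18 thinned. In Tgfbi Htra3 cells Pgk1 had -0.11, Slc2a1 -0.014 and Bnip3 -0.28 thinned, and Ndrg1 -0.071 with gates doubled. Slc16a3 in mature over Cd209a dendritic cells was -0.92 without its 5 top cells and -0.10 with gates doubled. Leaving out a replicate could not be done with 1 library per group. No paired analysis was possible because each group has 1 library. Members under 100 UMIs in a class are limited by depth.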
